A study of Mus musculus with 54 samples.

Results

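The 6 mouse genes described here switch the pyruvate dehydrogenase complex off and on. They are the kinases Pdk1, Pdk2, Pdk3 and Pdk4 and the phosphatases Pdp1 and Pdp2, chosen by their symbols, and each was read by 1 of the array's 25917 probe sets. The platform annotation gives 18759 genes in all on probe sets that carry a single symbol. The series measured total RNA from C57BL6 mice on 54 Affymetrix arrays, with swim and control groups in 7 tissues. Per the labels the mice were 14 weeks old, and the swim groups started at an age of 11 to 12 weeks. They had 9 days of acclimation in steps of 10 min and then 3 weeks of 2 daily sessions of 90 min, 4 h apart. Whether the start age is that of the acclimation or of the sessions was not resolved here. There were 4 arrays per group, in visceral and subcutaneous fat, liver, kidney, spleen, brain and muscle, except that liver had 3 controls and muscle 3 swim arrays. The labels do not state what the control mice did, their sex, the hour at which tissues were taken, or whether tissues came from the same mice. The p-values therefore measure the spread between these arrays, which may in part be technical.

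The pyruvate dehydrogenase complex in mitochondria turns pyruvate from sugar and lactate into acetyl-CoA, a step that animals cannot reverse. The kinases phosphorylate the complex and shut it, which spares glucose when fat is burned, and the phosphatases remove the phosphate and reopen it. Pdk4 is known as the isoform that fasting, fatty acids and glucocorticoids raise in muscle, Pdk2 as the widespread isoform, Pdk1 as a target of the hypoxia-inducible factor, and Pdk3 as an isoform of few tissues. Pdp1 is the phosphatase that calcium activates in contracting muscle, and Pdp2 is the isoform known from liver and fat.

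RefSeq promoters of build GRCm38.p6, each running from 250 bases before to 50 bases after the start, were at hand for 5 of the 6 genes, all but Pdp1. The sequences of Pdk1, Pdk2 and Pdk4 are printed because the largest called differences with swimming were those of these kinases, and because their windows differ in the motifs they hold. They lie at chr2:71872974-71873273 on the plus strand for Pdk1, chr11:95041322-95041621 on the minus strand for Pdk2 and chr6:5496229-5496528 on the minus strand for Pdk4. Pdk1 and Pdk2 have 2 listed starts each, of which the first is shown. Capitals mark matches to any of 7 motifs searched on both strands.
Pdk1: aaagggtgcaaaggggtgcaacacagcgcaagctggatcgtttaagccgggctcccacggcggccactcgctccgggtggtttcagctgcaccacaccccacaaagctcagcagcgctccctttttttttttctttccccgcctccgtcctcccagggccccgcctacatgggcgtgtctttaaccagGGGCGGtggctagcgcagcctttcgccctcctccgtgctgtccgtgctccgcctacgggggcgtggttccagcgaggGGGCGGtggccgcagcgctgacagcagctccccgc
Pdk2: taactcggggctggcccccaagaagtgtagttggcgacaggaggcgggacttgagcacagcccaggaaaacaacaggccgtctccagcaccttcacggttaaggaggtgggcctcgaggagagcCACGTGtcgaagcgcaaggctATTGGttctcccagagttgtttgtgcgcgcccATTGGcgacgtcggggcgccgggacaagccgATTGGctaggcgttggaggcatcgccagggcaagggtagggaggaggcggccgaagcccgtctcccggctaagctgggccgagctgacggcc
Pdk4: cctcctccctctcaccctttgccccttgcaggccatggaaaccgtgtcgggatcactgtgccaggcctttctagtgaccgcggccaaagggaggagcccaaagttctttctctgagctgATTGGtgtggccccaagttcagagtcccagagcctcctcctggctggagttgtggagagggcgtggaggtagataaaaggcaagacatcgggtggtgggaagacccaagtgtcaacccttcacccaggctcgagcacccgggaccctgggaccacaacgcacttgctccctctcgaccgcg
The capitals in the Pdk1 window are 2 GC boxes (GGGCGG), 1 starting 62 bases before the start site and the other 15 bases after it. The Pdk2 window held an E-box (CACGTG) starting 126 bases before the start, within which the shorter hypoxia response core (ACGTG) is read on both strands, and 3 CCAAT boxes, all on the other strand. The Pdk4 window held 1 CCAAT box, 131 bases before the start, and none of the other motifs. Over all 32851 promoters of this length, 35.7% held the GC box, 7.15% the E-box, 19.6% the hypoxia core and 37.4% the CCAAT box. The forkhead motif (GTAAACA, 3.65% of promoters), the motif of estrogen-related receptors (AAGGTCA, 4.72%) and the glucocorticoid receptor motif (AGAACA, 19%) were not in the 3 printed windows. The second listed window of Pdk1, not printed, held the glucocorticoid receptor motif on the other strand, 153 and 138 bases before its start. The window of the phosphatase Pdp2 held an E-box too, starting 219 bases before its start. These are matches of letters, with no binding measured.

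Intensities were read on 2 scales: comparisons of swim with control used log2 values scaled within each tissue, and comparisons of tissues used log2 values scaled over all 54 arrays. Medians of the deposited values ran from 45.92 to 118.65 intensity units per array. Marker genes matched the tissue labels, with the highest control means of Umod in kidney, Alb in liver, Ckm in muscle, Snap25 in brain, Cd79a in spleen and Adipoq in visceral fat. Subcutaneous fat was mixed from array to array, and its markers are given beside its swim results. Its resting means are taken over controls of which 18, 19 and 20 had high lymph node markers and 17 had low ones.

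In control mice, muscle held the most RNA of 4 members and kidney of the other 2 (mean ± SD on the scale of all arrays, n = 4 arrays per tissue and 3 in liver). All 6 members differed between tissues by limma's F test, as did 99.7% of all genes tested. Adjusted p-values were 6.40e-10 for Pdk1, 1.71e-14 for Pdk2, 6.60e-20 for Pdk3, 1.05e-12 for Pdk4, 2.37e-17 for Pdp1 and 4.58e-12 for Pdp2. In bulk tissue, fewer cells of a type and less RNA per cell cannot be told apart.

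**Figure D1:**
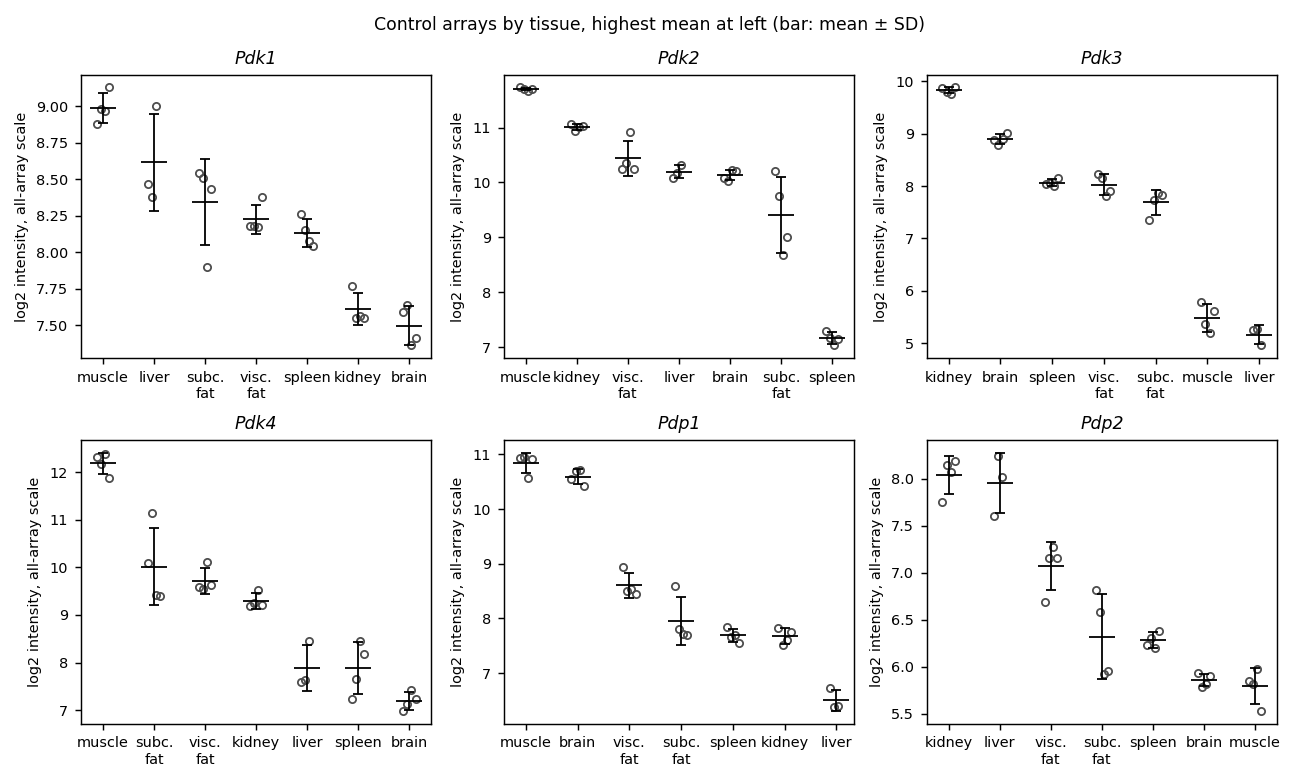
Log2 intensity, on the scale of all 54 arrays, of the 6 members in the control arrays of each tissue, with tissues in the order of their means. Circles are arrays and bars are mean ± SD; each panel has its own vertical range, so heights are not to be set against each other between genes. Pdk2, Pdk4 and Pdp1 were highest in muscle, where Pdk3 and Pdp2 were near their lowest.

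Pdk4, the isoform tied to fat burning, had the widest range of the 6, with 31.7-fold more in muscle than in brain, and 89.4% of all genes tested had a narrower range. The fold was 49.5 with arrays centred on their medians, and with a pseudocount of 1 the range of Pdk3 was wider (43.2-fold, against 35.3-fold for Pdk4). Its control mean was 12.18 ± 0.22 in muscle, 10.02 ± 0.81 in subcutaneous fat, 9.72 ± 0.27 in visceral fat and 9.29 ± 0.16 in kidney. Below these came liver at 7.89 ± 0.48, spleen at 7.88 ± 0.55 and brain at 7.20 ± 0.18. In liver, control 52, which held muscle RNA, read 8.45 beside 7.6 and 7.63, and without it spleen came above liver. Arrays of muscle overlapped with no other tissue, the fat depots overlapped with each other, and liver, spleen and brain overlapped in turn. Subcutaneous fat, whose lowest array read 9.40, also overlapped with kidney, whose highest read 9.53. In subcutaneous fat control 18 read 11.13 and the other controls between 9.4 and 10.1, and without control 18 visceral fat came second. Ucp1, a brown fat gene, read 10.85 in control 18 and between 4.7 and 8.15 in the other controls, scaled within the tissue. The part of brown fat in this Pdk4 reading was not tested.

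Pdk2, the widespread kinase, was high everywhere but in spleen. The mean was 11.70 ± 0.03 in muscle and 11.01 ± 0.05 in kidney, and these stood apart from each other and from the rest. Visceral fat at 10.44 ± 0.32, liver at 10.19 ± 0.12, brain at 10.13 ± 0.10 and subcutaneous fat at 9.41 ± 0.70 overlapped with their neighbours in this order. In subcutaneous fat, control 17, low in lymph node markers, read 10.21, and the other controls read 9.75, 8.68 and 9.01. The part of lymph node RNA in these readings was not tested. Spleen at 7.16 ± 0.11 lay below every other array, 23.3-fold under muscle.

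Pdk3 had a different order, with kidney and brain at the top. It averaged 9.82 ± 0.06 in kidney and 8.90 ± 0.10 in brain, each apart from the next tissue. Spleen at 8.06 ± 0.07, visceral fat at 8.03 ± 0.20 and subcutaneous fat at 7.69 ± 0.24 formed an overlapping middle. Muscle at 5.49 ± 0.26 and liver at 5.17 ± 0.18 were lowest and overlapped. Both were dim, so the fold between kidney and liver depends on the pseudocount: it was 25.2 with the 16 used here, 43.2 with 1 and 11.4 with 64.

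Pdk1 varied least of the 6, by 2.81-fold between muscle and brain, and 37.5% of all genes tested had a narrower range. Muscle averaged 8.99 ± 0.10, liver 8.62 ± 0.33, subcutaneous fat 8.34 ± 0.30, visceral fat 8.23 ± 0.10 and spleen 8.13 ± 0.10. Each of these overlapped with the next in the order. Kidney at 7.61 ± 0.11 and brain at 7.50 ± 0.14 lay below them and overlapped with each other. The liver mean includes control 52, the array with muscle RNA, at 9 beside 8.47 and 8.38.

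The phosphatases had nearly opposite orders. Pdp1, which calcium activates, averaged 10.85 ± 0.18 in muscle and 10.59 ± 0.14 in brain, which overlapped, and then fell off to 8.61 ± 0.23 in visceral fat, 7.95 ± 0.43 in subcutaneous fat, 7.69 ± 0.12 in spleen and 7.68 ± 0.14 in kidney. Liver was lowest at 6.51 ± 0.19, 20.2-fold below muscle. Pdp2 averaged 8.04 ± 0.20 in kidney and 7.96 ± 0.32 in liver, which overlapped, then 7.07 ± 0.26 in visceral fat, 6.32 ± 0.45 in subcutaneous fat and 6.28 ± 0.09 in spleen. Brain at 5.86 ± 0.07 and muscle at 5.79 ± 0.19 were lowest and dim. The fold between kidney and muscle was 4.75, but 6.19 with a pseudocount of 1 and 3.01 with 64, and brain was the lowest tissue without muscle control 44 or with arrays centred on their medians. Over the 14 group means of control and swim, Pdp1 and Pdp2 correlated at r = -0.79 and Pdk1 and Pdk3 at r = -0.82, while the other 13 of the 15 member combinations lay between -0.27 and 0.47. These correlations are descriptions, since each of the 7 tissues gives a control and a swim point among the 14.

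Swimming and control mice were then compared within each tissue, which asks where training went with more or less RNA for the kinases and phosphatases. Of the 42 combinations of member and tissue, 38 were tested, since Pdk3 in liver and muscle and Pdp2 in brain and muscle were too dim, among the lowest 40% of the tissue's probe sets. In 7 of the 38 the difference passed limma's test (Benjamini-Hochberg adjusted p under 0.05 over the genes of the tissue), 3 higher and 4 lower in swim mice, and all 7 were kinases. Pdk1 rose in visceral fat, liver and kidney, Pdk4 fell in visceral fat and muscle, Pdk2 fell in spleen and Pdk3 fell in kidney.

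**Figure D2:**
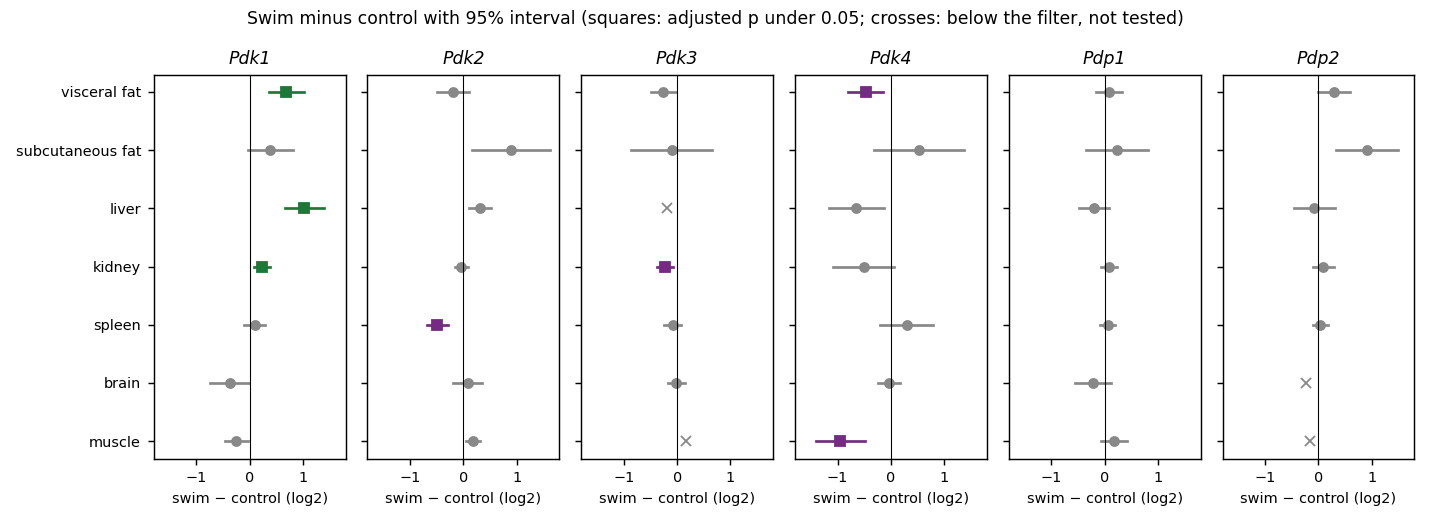
Swim minus control difference of each member in each tissue, in log2 units, with its 95% interval from limma. Squares passed the adjusted threshold (green higher, purple lower), grey circles did not, and crosses mark values below the signal filter that were not tested. Pdk1 lies right of 0 in liver (1.03) and Pdk4 left of 0 in muscle (-0.95), while most phosphatase intervals include 0.

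Many other genes also passed in several of these tissues, so the members' counts are set against them. In visceral fat 2 of 6 members passed, where 23.4% of all genes tested did, and 2 had swim arrays that did not overlap with the control arrays, against 27.2% of all genes. In kidney 2 of 6 passed (24.4% of all genes) and 2 did not overlap (27.7%). In spleen 1 of 6 passed (14% of all genes) and 1 did not overlap (23.7%). In muscle 1 of 4 passed (11.4% of all genes) and 3 did not overlap (28.6%). In liver 1 of 5 passed (4% of all genes) and 3 did not overlap (20.6%). Brain gave 0 of 5 passed (0.482% of all genes) and 0 not overlapping (12.1%), and subcutaneous fat 0 of 6 passed (0% of all genes) and 1 not overlapping (9.07%). By limma's unadjusted p under 0.05, 2489 genes would have passed in subcutaneous fat, Pdk2 and Pdp2 among them, and 1898 in brain, Pdk1 among them. The shares of members that passed were thus near those of all genes in spleen, visceral fat and kidney. In muscle and liver the share rests on 1 member each.

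Pdk4 fell in muscle, the tissue where its level was highest. Control arrays read 12.60, 12.39, 12.67 and 12.00, and swim arrays read 11.32, 11.23 and 11.86 (log2 intensity scaled within the tissue). All 3 swim arrays lay under all 4 control arrays. The group means were 12.42 ± 0.30 and 11.47 ± 0.34 (SD), a difference of -0.95 ± 0.20 (SE, 95% interval -1.40 to -0.49, adjusted p = 0.0267), or 1.93-fold lower in swim mice. The difference kept its sign without any 1 array, but its adjusted p lay above the threshold without control 41 (-0.88, 0.0637), control 42 (-0.95, 0.0520), control 43 (-0.85, 0.0600), swim 45 (-0.87, 0.0565) or swim 46 (-0.83, 0.0934). The 9 muscle fibre markers kept a list mean between 13.95 and 14.06 on every muscle array, while the mean of 5 adipocyte markers ran from 6.20 to 8.12 in control and from 7.55 to 9.06 in swim muscle. The macrophage list averaged between 6.54 and 7.09 in control and between 6.33 and 6.50 in swim muscle. The part of these cells in the difference was not tested.

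Pdk4 also fell in visceral fat, by less. Control arrays read 9.69, 9.65, 10.25 and 9.74 and swim arrays 9.47, 9.14, 9.55 and 9.26, with every swim array below every control array. The difference was -0.48 ± 0.14 (95% interval -0.80 to -0.16, adjusted p = 0.0389), and control 3 stood well above the other controls. Without control 3 the difference was -0.34 (adjusted p = 0.0572), and it also missed the threshold without control 4 (-0.50, 0.0633), swim 5 (-0.52, 0.0555), swim 6 (-0.41, 0.0923) or swim 8 (-0.45, 0.0869).

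In liver and kidney the Pdk4 differences leaned the same way but did not pass. Liver control arrays read 7.42, 7.44 and 8.36 and swim arrays 7.17, 7.28, 6.93 and 6.97, so the groups did not overlap (difference -0.65, 95% interval -1.17 to -0.14, adjusted p = 0.141). The high liver array, control 52, also held muscle RNA: its mean of 9 muscle fibre markers was 8.76, where the other liver arrays lay between 5.07 and 5.40, and Ckm, the muscle creatine kinase, read 8.32 there. Without control 52 the liver difference was -0.35 (adjusted p = 0.131), and with the muscle marker mean as a covariate it was -0.36 (0.102). With all arrays kept, it passed with values as deposited (-0.68, 0.00581) and with arrays centred on their medians (-0.66, 0.0377). Kidney control arrays read 9.26, 9.32, 9.62 and 9.30, and swim arrays 8.57, 9.79, 8.79 and 8.32. Swim 14 was the highest array of all, and the other 3 swim arrays lay below every control (difference -0.51, 95% interval -1.08 to 0.07, adjusted p = 0.178). Without swim 14 the kidney difference was -0.82 (adjusted p = 0.00271). Brown fat markers moved with these values: Ucp1, the heat-producing uncoupler of brown fat, read 10.55 in control 11 and 8.93 in swim 14, against 7.98, 8.11 and 6.54 in the other swim arrays. With the mean of the 7 brown adipocyte markers as a covariate the kidney difference was -0.31 (adjusted p = 0.188).

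The remaining Pdk4 intervals included 0. In spleen the difference was 0.30 (-0.20 to 0.79), in brain -0.03 (-0.24 to 0.18) and in subcutaneous fat 0.52 (-0.32 to 1.36). The brain interval was the narrowest of the 7 for this gene.

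Pdk1 rose in liver, the largest difference among the 38. Control arrays read 8.39, 8.28 and 9.01 and swim arrays 9.63, 9.56, 9.68 and 9.50, with every swim array above every control. The difference was 1.03 ± 0.16 (95% interval 0.66 to 1.40, adjusted p = 0.0180), or 2.04-fold higher. Control 52, the array with muscle RNA, was again the high control. On the scale of all arrays it read 9 for Pdk1, beside 8.47 and 8.38 in the other liver controls. Muscle controls averaged 8.99 on that scale, and the part of muscle RNA in the reading of control 52 was not tested. Without control 52 the difference was 1.26 (adjusted p = 8.59e-04), and with the muscle marker mean as a covariate 1.24 (0.00121). The adjusted p lay above the threshold without control 49 (0.94, 0.0669), control 50 (0.89, 0.0515), swim 53 (1.01, 0.0530) or swim 54 (1.04, 0.0541). The mean of 6 macrophage markers was lower in swim livers without overlap, between 8.77 and 8.91 in control and between 7.85 and 8.31 in swim arrays, and its part in the liver differences was not tested.

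In visceral fat Pdk1 rose as well, on arrays where Pdk4 fell. Control arrays read 8.27, 8.27, 8.26 and 8.48 and swim arrays 8.59, 9.05, 9.40 and 8.98, again without overlap. The difference was 0.69 ± 0.15 (95% interval 0.36 to 1.01, adjusted p = 0.0108), or 1.61-fold. It kept its call without any 1 array, but with values as deposited it was 0.55 (adjusted p = 0.133). Hepatocyte markers varied among these arrays, with 5 markers averaging between 5.78 and 8.10 in control and between 5.50 and 7.54 in swim arrays, and the macrophage list averaged 8.54 in control and 9.05 in swim arrays. Their part in the result was not tested.

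The Pdk1 rise in kidney was small. Control arrays read 7.83, 7.62, 7.62 and 7.61 and swim arrays 7.84, 8.01, 7.84 and 7.92, so that control 9 lay just under the lowest swim array. The difference was 0.23 ± 0.06 (95% interval 0.09 to 0.37, adjusted p = 0.0253), or 1.17-fold. The adjusted p rose above the threshold without control 10 (0.21, 0.0646), control 11 (0.21, 0.0595), control 12 (0.21, 0.0635), swim 14 (0.20, 0.0619) or swim 16 (0.22, 0.0609), and with values as deposited the difference was 0.37 and its adjusted p 1. Other cell types differed between the kidney groups without overlap: the macrophage list averaged between 7.53 and 7.66 in control and between 6.91 and 7.15 in swim arrays, and the hepatocyte list between 7.02 and 7.06 in control and between 7.15 and 8.40 in swim arrays. Their part in the kidney differences of Pdk1 and Pdk3 was not tested.

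Brain and muscle had less Pdk1 RNA on average in swim mice, without passing. Brain control arrays read 7.84, 7.89, 7.63 and 7.67 and swim arrays 7.51, 7.67, 7.44 and 6.90, with swim 40 lowest (difference -0.38, 95% interval -0.73 to -0.02, adjusted p = 0.284). Muscle control arrays read 8.74, 8.85, 8.84 and 9.03 and swim arrays 8.44, 8.75 and 8.64 (difference -0.25, -0.47 to -0.03, adjusted p = 0.121). These groups overlapped, narrowly in muscle. The difference was 0.10 (-0.10 to 0.29) in spleen and 0.39 (-0.04 to 0.81) in subcutaneous fat.

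**Figure D3:**
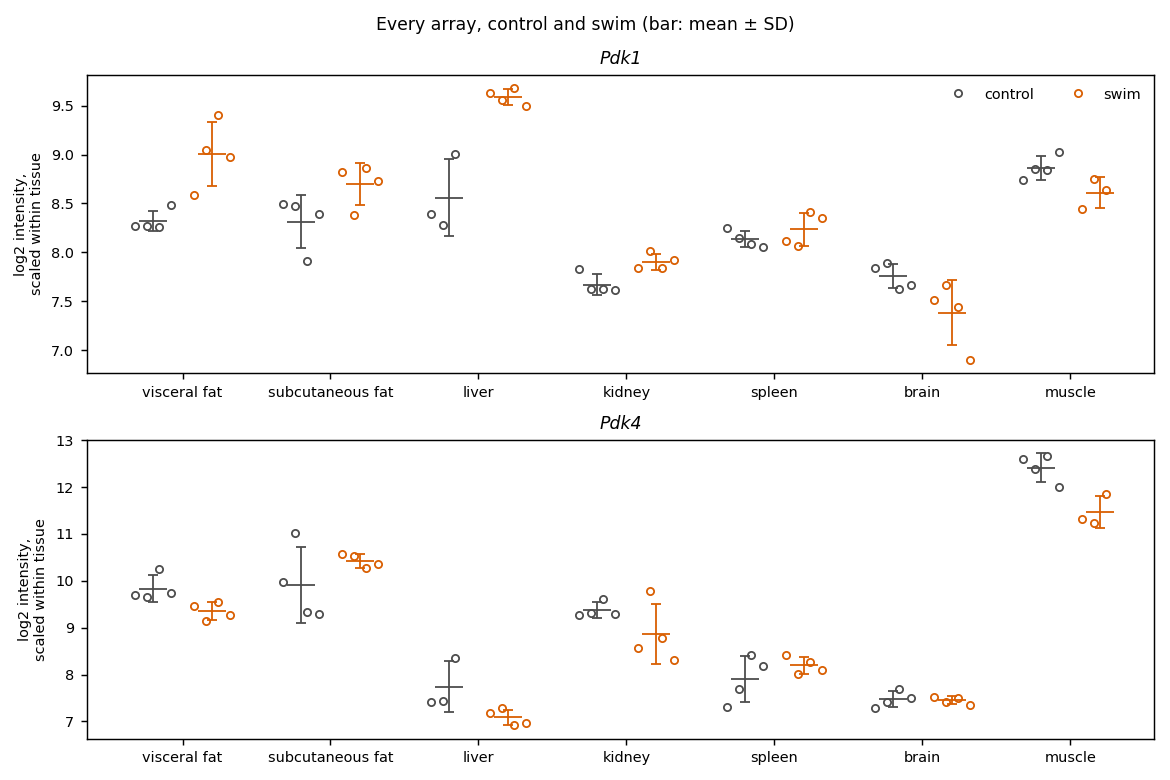
Log2 intensity, scaled within each tissue, of Pdk1 and Pdk4 on every control (grey) and swim (orange) array of the 7 tissues. Circles are arrays and bars are mean ± SD; values are comparable within a tissue, not between tissues. Swim arrays lay above control arrays for Pdk1 in visceral fat, liver and kidney, and below them for Pdk4 in visceral fat, liver and muscle.

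Pdk2 fell in spleen, the tissue with least of it. Control arrays read 7.36, 7.25, 7.12 and 7.23 and swim arrays 6.90, 6.58, 6.86 and 6.63. Swim arrays all lay below control arrays, and the difference of -0.49 ± 0.09 (95% interval -0.69 to -0.30, adjusted p = 0.0126), 1.41-fold lower, kept its call without any 1 array. Other cell types differed between the spleen groups: the 2 measured erythroid genes averaged between 11.52 and 11.77 in control and between 10.47 and 11.66 in swim arrays, and the 6 macrophage genes between 9.57 and 9.72 in control and between 8.80 and 9.39 in swim arrays. T cell markers averaged between 9.82 and 9.92 in control and between 9.98 and 10.29 in swim spleens. Hepatocyte markers ran from 4.79 to 10.48 among control and from 5.11 to 7.64 among swim spleens. Their part in the Pdk2 difference was not tested.

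In liver and muscle the Pdk2 arrays of swim mice lay above those of controls, without a call. Liver control arrays read 10.29, 10.39 and 10.56 and swim arrays 10.61, 10.67, 10.83 and 10.78 (difference 0.31, 95% interval 0.11 to 0.51, adjusted p = 0.0904). Muscle control arrays read 11.84, 11.80, 11.77 and 11.80 and swim arrays 12.04, 11.93 and 11.98 (difference 0.18, 0.06 to 0.31, adjusted p = 0.0673). Neither pairing of groups overlapped, and the control SD in muscle was 0.03. The kidney difference was -0.04 (-0.15 to 0.08), that in brain 0.08 (-0.19 to 0.35) and that in visceral fat -0.19 (-0.50 to 0.11). Visceral fat control 3, at 11.02, stood above the other 3 controls, which lay between 10.39 and 10.48, and without it the difference was -0.04 (adjusted p = 0.737). With arrays centred on their medians, which moved the median of all genes to -0.22 in this tissue, it was -0.62 and passed (0.00377).

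Pdk3 fell in kidney, where its level was highest. Control arrays read 9.96, 9.90, 9.86 and 9.98 and swim arrays 9.75, 9.51, 9.76 and 9.77, without overlap. The difference was -0.23 ± 0.06 (95% interval -0.37 to -0.08, adjusted p = 0.0288), 1.17-fold lower. Its adjusted p lay above the threshold without control 9 (-0.21, 0.0688), control 10 (-0.24, 0.0517) or control 12 (-0.21, 0.0696), and with values as deposited the difference was -0.18 and its adjusted p 1. The macrophage and hepatocyte shifts given for Pdk1 are those of the same kidney arrays. The other tested tissues gave differences below 0 that did not pass, at -0.26 (-0.50 to -0.03) in visceral fat, -0.08 (-0.24 to 0.08) in spleen, -0.01 (-0.18 to 0.15) in brain and -0.10 (-0.86 to 0.66) in subcutaneous fat.

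Neither phosphatase passed in any tissue. Pdp1 in muscle, its most abundant site, read 10.99, 11.01, 10.60 and 10.96 in control and 11.03, 11.08 and 11.08 in swim arrays, with the lowest swim array just above the highest control (difference 0.17, 95% interval -0.07 to 0.41, adjusted p = 0.290). In brain Pdp1 read 10.43, 10.57, 10.58 and 10.33 in control and 10.16, 10.62, 10.36 and 9.89 in swim arrays (difference -0.22, -0.55 to 0.12). Elsewhere the Pdp1 difference was 0.08 (-0.17 to 0.32) in visceral fat, 0.23 (-0.35 to 0.81) in subcutaneous fat, -0.20 (-0.49 to 0.09) in liver, 0.08 (-0.08 to 0.23) in kidney and 0.06 (-0.08 to 0.20) in spleen. The kidney and spleen intervals leave out changes as large as those of the called kinases in visceral fat, liver and muscle.

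Pdp2 in liver read 7.42, 8.14 and 7.90 in control and 7.92, 7.63, 7.58 and 7.83 in swim arrays, and in kidney 7.81, 8.22, 8.14 and 8.25 in control and 8.19, 8.12, 8.19 and 8.28 in swim arrays. The groups overlapped in both tissues where this phosphatase was most abundant. The difference was -0.08 (95% interval -0.46 to 0.30) in liver, 0.09 (-0.11 to 0.29) in kidney, 0.04 (-0.10 to 0.17) in spleen and 0.29 (-0.003 to 0.59, adjusted p = 0.135) in visceral fat. Below the filter, brain control arrays read between 5.98 and 6.16 and swim arrays between 5.77 and 5.96.

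**Figure D4:**
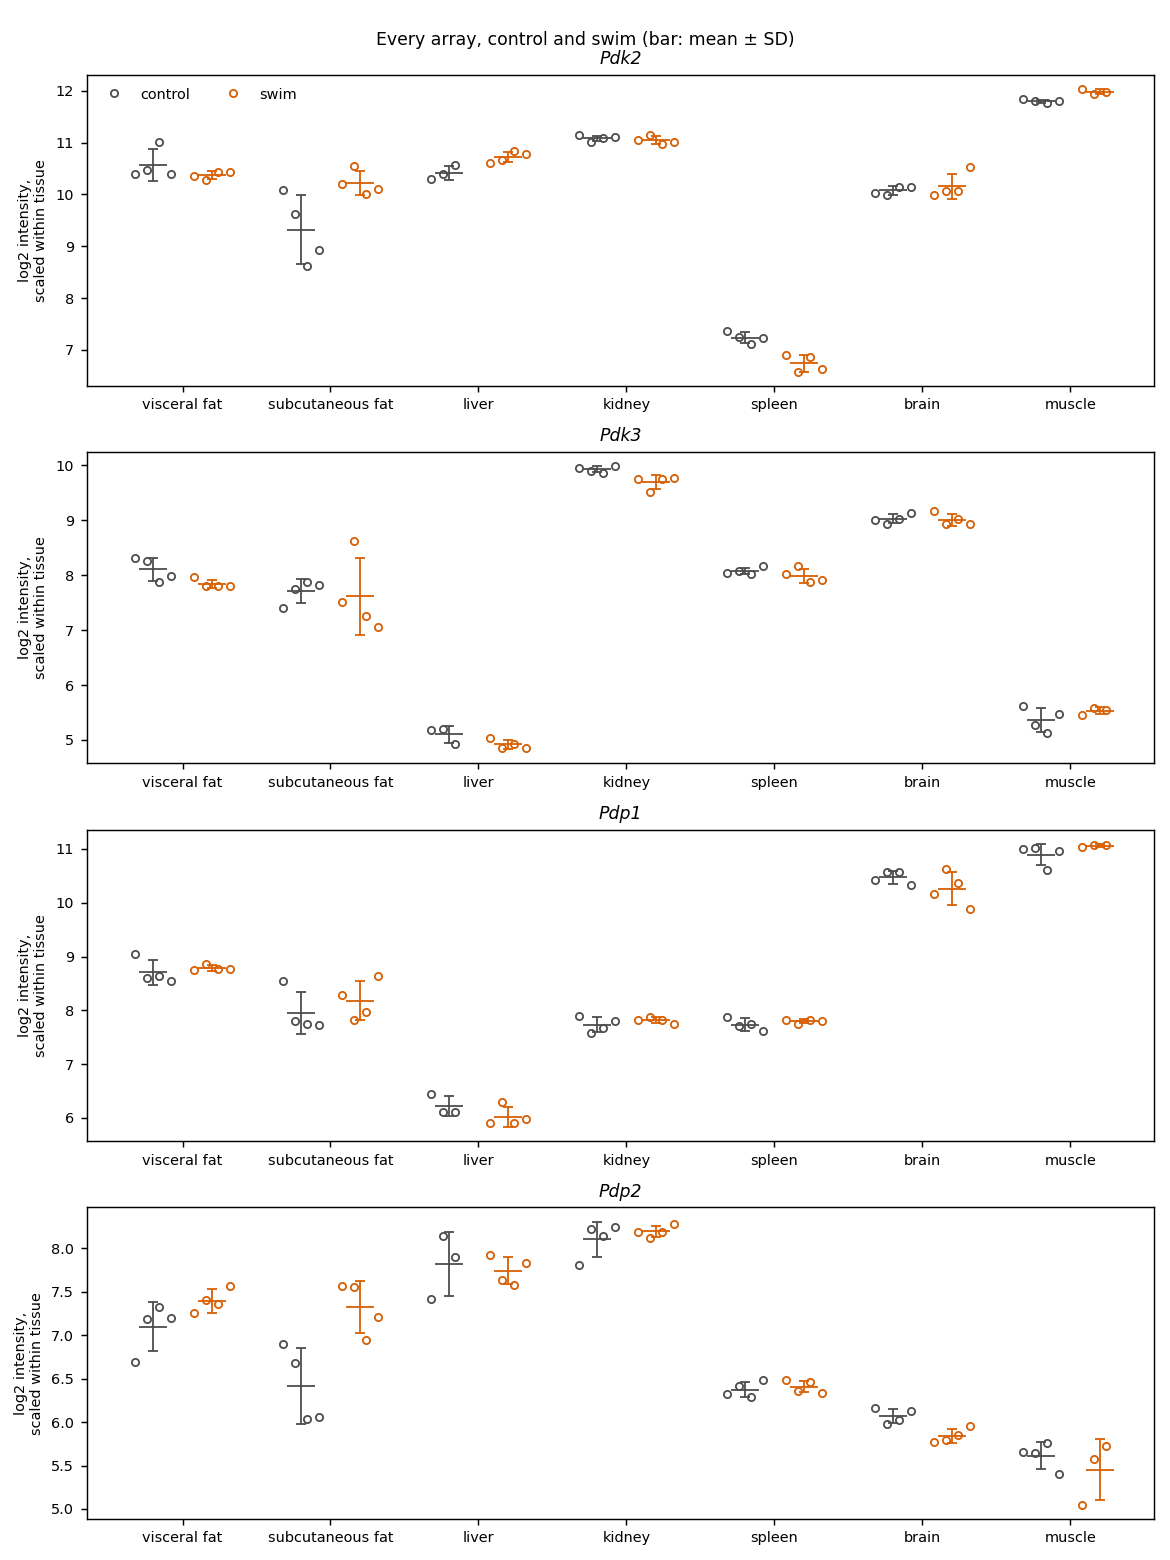
Log2 intensity, scaled within each tissue, of Pdk2, Pdk3, Pdp1 and Pdp2 on every control (grey) and swim (orange) array. Circles are arrays and bars are mean ± SD; values are comparable within a tissue. The wide subcutaneous fat groups contrast with muscle Pdk2, whose control SD was 0.03, and swim arrays of Pdk2 in spleen all lie under the control arrays.

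Subcutaneous fat had the widest spread, and its arrays held different mixtures of cells. Lymph node markers were high in controls 18, 19 and 20, where Cd79a, a B cell receptor chain, read 11.14, 11.26 and 11.13, and low in control 17 at 4.95. Among swim arrays Cd79a read 5.19, 8.60, 9.87 and 4.43. Swim 22 held kidney RNA, with Umod, the tubule protein uromodulin, at 15.24 against 5.01 to 5.54 in the other 7 arrays. Swim 23 held muscle RNA, with Ckm at 11.51 against 5.53 to 7.55.

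On these arrays Pdk2 read 10.09, 9.63, 8.62 and 8.93 in control and 10.20, 10.54, 10.01 and 10.11 in swim mice. Swim 22, with kidney RNA, had the highest Pdk2 and the highest Pdk3, at 8.63 against 7.06 to 7.88 on the other arrays. Among control tissues kidney was highest for Pdk3 and Pdp2 and next to muscle for Pdk2. Swim 22 was not the highest array for Pdp2, at 7.56 beside 7.57 in swim 21. The part of kidney RNA in these readings was not tested. The Pdk2 difference was 0.90 (95% interval 0.17 to 1.63, adjusted p = 0.212). Pdp2 read 6.90, 6.68, 6.03 and 6.06 in control and 7.57, 7.56, 6.95 and 7.21 in swim mice, without overlap (difference 0.91, 0.33 to 1.48, adjusted p = 0.203). With the mean of 6 B cell and lymph node markers as a covariate the differences were 0.71 for Pdk2 (adjusted p = 0.291) and 0.74 for Pdp2 (0.209). Without control 17, the control array of low lymph node markers, both passed, with 1.14 for Pdk2 (adjusted p = 0.0185) and 1.05 for Pdp2 (0.0177). In that fit 3976 of all 11522 genes tested passed, against 0 in the reported fit. All controls kept in it had high lymph node markers and not all swim arrays did, so swimming and cell mixture cannot be told apart there. Without swim 22 and 23 together the differences were 0.84 for Pdk2 (adjusted p = 0.306) and 0.97 for Pdp2 (0.282).

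**Figure D5:**
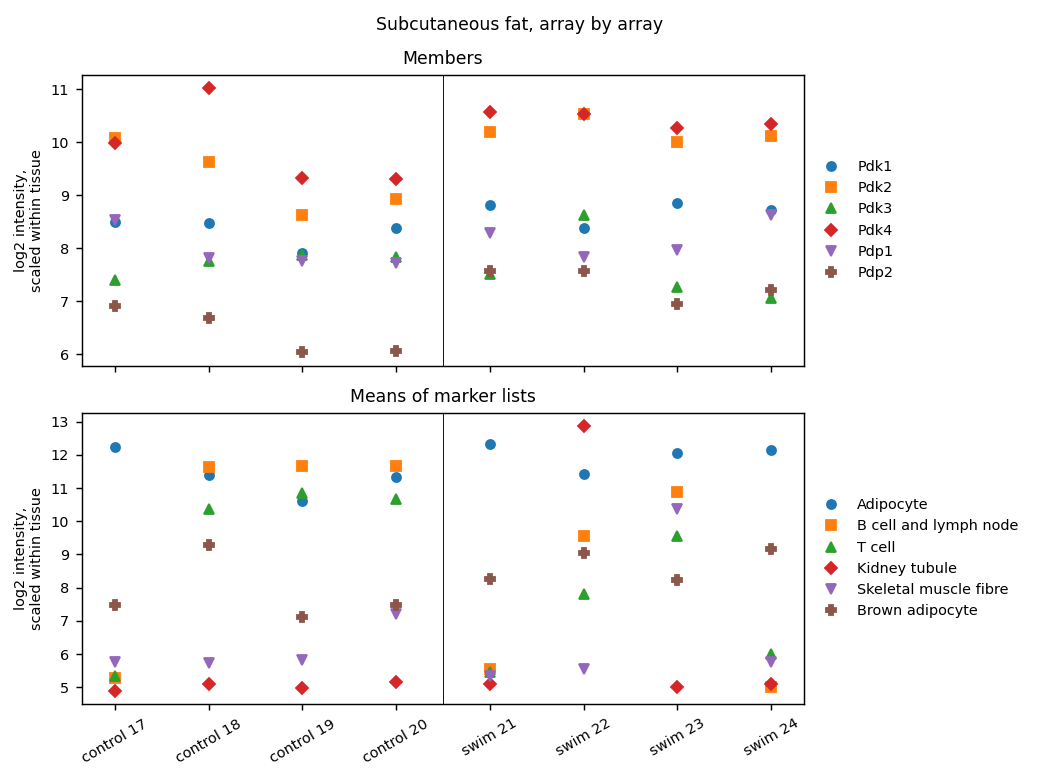
Log2 intensity, scaled within the tissue, on each of the 8 subcutaneous fat arrays: the 6 members above and the means of 6 marker lists below. Control arrays stand left of the line and swim arrays right of it. Kidney tubule markers are high in swim 22 only (12.87), muscle fibre markers are highest in swim 23 (10.37), and the B cell and lymph node list is low in control 17 (5.28) and high in the other 3 controls.

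Whether a gene's difference varied with the tissue was tested over all 54 arrays. The limma F test of an equal swim effect in all 7 tissues, with a weight for each tissue's spread, passed for 2 of 6 members, Pdk1 (adjusted p = 5.69e-06) and Pdk2 (2.29e-04), and for 46.6% of all genes tested, and these 2 passed in each of 60 alternatives. On this scale the Pdk1 difference ran from 0.88 in liver and 0.68 in visceral fat to -0.40 in brain and -0.21 in muscle. Pdk2 ran from 0.92 in subcutaneous fat and 0.26 in liver to -0.51 in spleen. The adjusted p was 0.0905 for Pdk3, 0.0613 for Pdk4, 0.177 for Pdp1 and 0.0861 for Pdp2, so that a difference between tissues was not shown for them in this fit, and for each some alternatives passed. For Pdk4 it was 0.00191 without kidney swim 14, the array that stood apart, and below the threshold also without kidney swim 16 (0.0489), spleen control 27 (0.0276) or muscle swim 47 (0.0416), with a pooled spread (0.0235) and with arrays centred on their medians (0.0249). Pdp2 passed with a pooled spread (0.00163) and without subcutaneous fat control 17 (0.0316), muscle control 44 (0.0490), muscle swim 47 (0.0262) or liver control 49 (0.0343). Pdk3 passed with centred arrays (0.0154) and without subcutaneous fat swim 22 (0.0420), muscle control 41 (0.0245) or liver control 52 (0.0495), and Pdp1 without brain swim 38 (0.0431). In simulated data this test called 312 genes of which 119 were unchanged, so its calls are less secure than those within a tissue.

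The genes whose level followed each member most closely over the 14 group means were picked by Pearson correlation, as a description over 7 tissues in 2 conditions. For Pdk4 these were Cox8b (r = 0.954), a cytochrome oxidase subunit of muscle and brown fat, Gyg (0.936), which primes glycogen, and Trip10 (0.930). For Pdk2 they were Tpi1 (0.989), a glycolytic enzyme, Ndufb6 (0.987), a subunit of respiratory complex I, and Sod2 (0.981), the mitochondrial superoxide dismutase. Pdk1 was followed by Gpr146 (0.921), Haus7 (0.909) and the transcription factor gene Cebpb (0.897), and Pdk3 by Dmtn (0.971), Lrrc8b (0.960) and Ncoa7 (0.952). Among the phosphatases, Pdp1 was followed by the calcium channel subunit gene Cacna2d1 (0.967), Mtss2 (0.958) and Dtna (0.957), and Pdp2 by Fam83h (0.973), Tmbim6 (0.968) and Aldh9a1 (0.967). Over the 7 swim minus control differences, Pdk4 went most closely with A4gnt (0.979), Syt12 (0.940) and Clock (0.933), and Pdk1 with Polr2h (0.940), Zdhhc22 (0.892) and 9430038I01Rik (0.891). Clock, a core gene of the circadian oscillator, differed by -0.47 in visceral fat, -0.51 in liver, -0.22 in kidney and -0.37 in muscle on the scale of all arrays, beside -0.47, -0.58, -0.50 and -0.79 for Pdk4. In subcutaneous fat, spleen and brain Clock differed by 0.26, 0.10 and -0.06, beside 0.52, 0.32 and -0.03 for Pdk4. Clock was picked for this likeness, so the match between these values is no test.

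The complex that these enzymes control was measured through 4 of its 5 subunit genes, since the probe set of Pdha1 carries several symbols. Pdhb, of the decarboxylase, rose in visceral fat by 0.65 ± 0.16 (adjusted p = 0.0170), from 10.48 ± 0.29 to 11.13 ± 0.24 (SD), and in kidney by 0.26 ± 0.05 (0.00732). Pdhx, which anchors the lipoamide dehydrogenase Dld, fell in spleen by 0.22 ± 0.06 (adjusted p = 0.0437). The other 25 of 28 subunit values, including all of Dlat and Dld, did not pass, and Pdpr, the regulatory subunit of the phosphatase, passed in 0 of 7 tissues. Of all genes tested, 23.4% passed in visceral fat, 24.4% in kidney and 14% in spleen. At rest all 4 subunits were highest in muscle and lowest in spleen, with ranges on the log2 scale from 2.11 for Pdhb to 2.68 for Dlat, and spleen was also the tissue with least Pdk2.

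Genes that carry pyruvate and lactate or make other uses of pyruvate were called in both directions. Slc16a1, a lactate and pyruvate carrier, fell by 0.85 ± 0.10 in visceral fat (adjusted p = 9.03e-04) and fell by 1.04 ± 0.11 in kidney (3.66e-04), and Slc16a3, the lactate exporter of working muscle, fell by 1.07 ± 0.10 in muscle (0.00469). Slc16a7, a carrier of high affinity for pyruvate, rose by 1.12 ± 0.14 in liver (0.00804) and by 0.30 ± 0.05 in kidney (0.00365). In liver, 3 of 12 measured genes of this list rose and 0 fell, where 4% of all genes passed, with Pklr, the liver pyruvate kinase, up by 0.72 ± 0.15 (0.0441) and Pcx, pyruvate carboxylase, by 0.29 ± 0.06 (0.0414). The list had 2 higher and 1 lower of 11 in visceral fat (23.4% of all genes passed), 1 higher and 2 lower of 11 in kidney (24.4%), 2 lower of 8 in spleen (14%) and 1 lower of 11 in muscle (11.4%), and 0 in brain and subcutaneous fat. In spleen the 2 were Pklr at -1.37 ± 0.32 (0.0262) and Slc16a3 at -0.53 ± 0.14 (0.0395). Bckdk, the related kinase of the branched-chain dehydrogenase, fell by 0.18 ± 0.05 in kidney (0.0286) and fell by 0.32 ± 0.08 in spleen (0.0323).

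Fatty acid genes, many of them targets of the PPAR receptors like Pdk4, fell for 6 of 14 measured in spleen (list median -0.13, all genes 0.00), where Pdk4 itself differed by 0.30 without passing. They included Angptl4, an inhibitor of lipoprotein lipase, from 7.14 ± 0.21 to 6.13 ± 0.16 (SD, adjusted p = 0.00491), and Acot2, a mitochondrial thioesterase, at -0.88 ± 0.08 (0.00284). In muscle, where Pdk4 fell, 1 of 15 fell, Acot2 at -0.81 ± 0.21 (0.0472), and 0 rose. In visceral fat 1 of 15 fell, Slc25a20 at -0.35 ± 0.10 (0.0328), in kidney 3 of 15 fell, and in liver 2 of 15 rose, Acadl by 0.57 ± 0.06 (0.00451) and Acot2 by 0.87 ± 0.16 (0.0280). Of 13 regulators known to act on kinase genes, Ppargc1a, a coactivator of fat burning, rose in liver by 0.82 ± 0.15 (0.0268) and in kidney by 0.33 ± 0.05 (0.00180), and Ppard fell in kidney by 1.02 ± 0.11 (4.07e-04). In kidney 5 of the 13 rose and 1 fell, in visceral fat 2 of 12 rose, and in spleen 1 of 11 rose and 2 fell. In muscle Esrra fell by 0.35 ± 0.08 (0.0356). Of all genes tested, 24.4% passed in kidney, 23.4% in visceral fat, 14% in spleen, 11.4% in muscle and 4% in liver.

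Lists of genes known to respond to hormones, oxygen or the clock were counted beside the kinases. No action of hormones, oxygen or the clock on the kinases was measured. Genes of the glucocorticoid list went both ways. Fkbp5 was higher in liver by 1.41 ± 0.17 (adjusted p = 0.00804) and in spleen by 0.73 ± 0.14 (0.0152). Cdkn1a fell by 1.82 ± 0.20 in visceral fat (6.41e-04), fell by 1.73 ± 0.35 in liver (0.0371) and fell by 1.25 ± 0.15 in kidney (5.46e-04). By tissue, 2 of 12 rose and 2 fell in visceral fat, 1 and 2 of 12 in liver, 2 and 3 of 12 in kidney, 2 and 4 of 12 in spleen, and 2 and 0 of 12 in muscle. Of the insulin and FoxO list, Trim63, a muscle ubiquitin ligase, fell in muscle by 0.61 ± 0.13 (0.0283), the only 1 of 10 measured there that passed. In visceral fat 3 of 9 rose, in kidney 2 of 11 rose and 2 fell, and in spleen 1 of 7 rose. The share of all genes that passed was 23.4% in visceral fat, 4% in liver, 24.4% in kidney, 14% in spleen and 11.4% in muscle. Klf15, a factor raised in fasting, rose in visceral fat by 0.50 ± 0.14 (0.0254) and in kidney by 0.41 ± 0.08 (0.00588).

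In the 3 tissues where Pdk1 rose, genes of the hypoxia list went both ways. In visceral fat 2 of 10 rose and 1 fell, with Vegfa, a vessel growth factor, up by 0.52 ± 0.13 (adjusted p = 0.0183). In liver 1 of 10 rose, Bnip3 by 0.72 ± 0.10 (0.0129), and 1 fell, the glucose carrier Slc2a1 by 0.51 ± 0.11 (0.0425). In kidney 3 of 11 rose and 2 fell, in spleen 2 of 10 rose, and in muscle 1 of 11 rose and 1 fell. Of the core clock list, 13 of 15 genes passed in visceral fat, 11 of 15 in liver, 12 of 14 in kidney, 4 of 11 in spleen and 10 of 15 in muscle, and 0 of 15 in brain and in subcutaneous fat by limma. Among all genes, 23.4% passed in visceral fat, 4% in liver, 24.4% in kidney, 14% in spleen and 11.4% in muscle. That share was 0.482% in brain and 0% in subcutaneous fat. Arntl, a clock activator, fell by 2.37 ± 0.15 in liver (4.64e-04) and fell by 1.64 ± 0.15 in muscle (0.00395). These clock values stand beside the Pdk1 and Pdk4 differences in the same tissues, the hour of collection is not given, and the part of the clock in the kinase differences was not tested.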

How the data were processed

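Total RNA was labelled with biotin and hybridised to Affymetrix arrays. The authors deposited linear intensity values of 25917 probe sets; the tools named in the submitters' processing notes are PLIER and limma, and versions, settings and genome build are not given in the sources used here. Probe sets with several symbols (1867; Pdha1, Cpt1b, Nr1d1 and Dbp lie on such sets) or none (2964) were left out, and 21086 with 1 symbol gave 18759 genes. Whether related kinases share probes was not examined.

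Here log2(intensity + 16) was quantile-normalized within each tissue, or over all 54 arrays to compare tissues. The lowest 40% of probe sets by mean were left out and the highest stood for its gene. Tests were two-sided in R 4.3.3 with limma 3.58.1 (lmFit, eBayes), Benjamini-Hochberg over the genes tested, threshold 0.05; statmod 1.5.0, pandas 2.3.3 and matplotlib 3.10.9 served the robust fits, counts and plots. SE and 95% intervals are limma's. The number of arrays limits the precision.

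Members and lists were chosen with earlier results of these data known. Named genes are the members, up to 3 called genes of smallest p per list and tissue, of which a part is named, the 3 likest genes per member and markers that varied. On simulated data with 200 changed genes, the within-tissue test found 87.2% to 98.9% of changes of 1 log2 unit outside subcutaneous fat, and 17.2% there. Of changes of 0.5 log2 units it found 57.3% in visceral fat to 91.5% in kidney, and 0% in subcutaneous fat. Every member difference but that of Pdk1 in liver was under 1 log2 unit, so a value that did not pass can hide a change. The within-tissue test keeps these limits in the results above. It ran on 11203 to 11621 genes by tissue in the data and on 11221 to 11671 in the simulations. Alternatives were other scalings, pseudocounts, filters and variance models, marker covariates and arrays left out.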

Additional observations from a re-analysis of the deposited data

Results flagged for a closer look

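In groups of 4 arrays, 9 of 72 combinations of member and group had a highest or lowest array far from the others, where chance flags about 1 in 20. In visceral fat these were control 4 for Pdk1 (8.48, others 8.26 to 8.27), control 3 for Pdk2 (11.02, others 10.39 to 10.48), control 3 for Pdk4 (10.25, others 9.65 to 9.74) and swim 5 for Pdk3 (7.96, others 7.80 to 7.81). In kidney they were control 9 for Pdk1 (7.83, others 7.61 to 7.62) and swim 14 for Pdk3 (9.51, others 9.75 to 9.77). The remaining arrays were subcutaneous fat control 17 for Pdp1 (8.54, others 7.72 to 7.81), brain swim 40 for Pdk2 (10.52, others 9.98 to 10.07) and muscle control 43 for Pdp1 (10.60, others 10.96 to 11.01). Visceral fat control 3 stood out for both Pdk2 and Pdk4.

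The swim effect differed between tissues by the limma F test for Pdk1 (adjusted p = 5.69e-06), higher in liver and visceral fat and lower on average in brain and muscle, and for Pdk2 (adjusted p = 2.29e-04), lower in spleen.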

How the results depend on the processing

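No called difference changed sign under any alternative run, and 82 of 113 alternatives of the 7 called values kept the call. Signs changed for 16 of the 42 values, none called in either setting. As deposited, they were -0.06 for Pdp1 in visceral fat, -0.21 for Pdk1, -0.02 for Pdk4, -0.24 for Pdp1 and -0.12 for Pdp2 in spleen, -0.16 for Pdk2 in brain, and -0.11 for Pdk2 and -0.10 for Pdp1 in muscle. Centred on medians they were -0.18 for Pdp1 in visceral fat, -0.02 for Pdk1 and -0.05 for Pdp1 in spleen, and -0.06 for Pdk2 in brain. Array weights gave -0.25 for Pdk4 in subcutaneous fat and 0.06 for Pdk4 and 0.00 for Pdk2 in brain, and the lymph node covariate 0.09 for Pdk3 and -0.04 for Pdp1 in subcutaneous fat. Without 1 array, differences ran from -0.44 to 0.09 for Pdk3 in subcutaneous fat, -0.27 to 0.09 for Pdp2 in liver, -0.01 to 0.14 for Pdp2 in kidney, and in brain -0.04 to 0.14 for Pdk2, -0.07 to 0.02 for Pdk3 and -0.09 to 0.04 for Pdk4; Pdp2 in muscle was 0.04 without swim 45. With values as deposited, members called were 1 in visceral fat, 2 in liver, 0 in kidney and 2 in spleen; with arrays centred on their medians, 4 in visceral fat, 2 in liver and 4 in the test across tissues. A fit of all 54 arrays, which pools the spread, called 1 in visceral fat, 3 in subcutaneous fat, and 0 each in kidney, spleen and muscle. Array weights, whose estimation stopped short of its convergence tolerance in part of the fits, called 3 in subcutaneous fat and 1 in brain, the trend and robust options 2 in liver and 2 in muscle, a pseudocount of 64 called 2 in muscle, no filter 1 in kidney, and a pooled spread 4 across tissues. Without 1 array, calls ran from 1 to 2 in visceral fat, 0 to 2 in subcutaneous fat, 0 to 1 in liver, 0 to 2 in kidney, 0 to 1 in muscle and 2 to 4 across tissues, the 4 without muscle swim 47. The cause was not tested. Resting differences between tissues passed for all 6 members in each alternative run, and the highest tissue stayed for 5 members in 31 of 31 and for Pdp2 in 29. The resting range between tissues moved by more than the replicate spread in 21 of 186 alternatives, some of them for each member. Over the alternatives it was 11.4-fold to 43.2-fold for Pdk3 (25.2-fold as reported), 24-fold to 49.5-fold for Pdk4 (31.7-fold) and 3.01-fold to 6.19-fold for Pdp2 (4.75-fold). It was 17.6-fold to 32-fold for Pdk2 (23.3-fold), 13.5-fold to 27.1-fold for Pdp1 (20.2-fold) and 2.43-fold to 3.37-fold for Pdk1 (2.81-fold).

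Scaling moved the median of all genes by over 0.1: as deposited to -0.27 in spleen, -0.23 in muscle and -0.20 in brain, and centred to -0.22 in visceral fat, so Pdk2 and Pdk3 there are to be read against that shift. Genes called ranged over the alternatives from 601 to 5209 in visceral fat (2677 in the reported fit), 0 to 6637 in subcutaneous fat (0), 127 to 707 in liver (448), 42 to 3064 in kidney (2836), 571 to 5127 in spleen (1591), 3 to 3122 in brain (56) and 69 to 2754 in muscle (1289). Of spleen calls 50.2% were higher as reported and 1.29% as deposited, and of visceral fat calls 48.4% and, centred, 13.4%.

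No paired analysis was possible because replicate numbers in the labels are not shared between groups.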
